A study of Mus musculus with 2 samples.

Results

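The genes described here are 10 members of the BMP and activin signalling system, chosen by symbol from 32285 features and found in both feature tables. They are the BMP ligands Bmp2, Bmp4 and Bmp7, the activin subunits Inhba and Inhbb, the type I receptors Bmpr1a and Acvr1, the secreted binding proteins Bmper and Fst, and the membrane protein Pmepa1. Single cells were taken from mouse uterus at gestational day 3.5, the stage at which the uterus becomes receptive to the embryo. One library, labelled KO, was of genotype Pgrcre/+Mig-6f/f. In this genotype Cre is expressed from 1 allele of the progesterone receptor gene Pgr and both Mig-6 alleles are floxed. The other, labelled Cont, was of genotype Mig-6f/f, with the same floxed alleles and no Cre. The study examined how loss of Mig-6 (gene Errfi1), a progesterone-responsive brake on EGF receptor signalling, alters the uterus before implantation. Each genotype has 1 library, and the Cre allele at Pgr is present in the KO genotype alone, so it cannot be told apart from the deletion it drives.

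BMPs and activins are dimeric ligands of the TGF-beta superfamily. They bring type I and type II receptor kinases together at the cell surface, and the type I kinase phosphorylates SMAD proteins that move to the nucleus, SMAD1 and SMAD5 under BMPs and SMAD2 and SMAD3 under activins. Secreted proteins such as noggin, BMPER and follistatin bind the ligands and set how far they reach. In the mouse uterus, Bmp2 is required for stromal cells to decidualize, and the receptors Acvr1 and Bmpr1a take part in implantation.

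Uteri were digested with trypsin and passed over a removal kit for blood cells, and RNA molecules were counted as unique molecular identifiers (UMIs) for every gene in every cell barcode. The library labelled KO held 23317904 UMIs over 3118 barcodes and Cont held 44871170 UMIs over 4627 barcodes, of which 2881 and 4303 barcodes were kept. Each barcode was classed by its marker RNA. Epithelial barcodes had at least 10 UMIs of Epcam, Krt8, Krt18 and Cldn7 per 10000 UMIs, stromal barcodes had at least 10 of Dcn, Col1a2 and Col3a1, and other barcodes had neither. These classes held 1418, 1050 and 404 barcodes in the library labelled KO, against 723, 3221 and 333 in Cont, and 9 and 26 barcodes over both cuts were kept apart. Each class is a range of a marker sum. Between 8 and 12 per 10000 UMIs lay 72 and 103 barcodes for the stromal sum, and 16 and 6 for the epithelial sum. Only 3 barcode sequences occurred in both libraries. Median depth was 3636 UMIs in stromal barcodes labelled KO and 8879 in Cont, and 9523.5 and 11749 UMIs in epithelial barcodes.

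The classes carried the markers of their names. Hand2, Hoxa10, Pdgfra and Vim were not used to class barcodes. They summed to 1183 CPM (counts per 1000000 UMIs of the class in that library) in stroma labelled KO and 1298 CPM in Cont stroma. In epithelium the sum was 3.80 and 6.87 CPM. In other barcodes it was 833 and 1051 CPM, mostly Vim at 706 and 922 CPM, so the sum sets stroma apart from epithelium only. Hand2, Hoxa10 and Pdgfra were each higher in stroma than in other barcodes. Hoxa10 was 272 and 326 CPM in stroma, against 60.9 and 76.4 CPM in other barcodes. Mural markers (Rgs5, Acta2, Myh11 and Des) reached 10 per 10000 UMIs in 335 of 1050 stromal barcodes labelled KO and 194 of 3221 in Cont. Des led them in the library labelled KO, at 1476 CPM in those barcodes. Acta2 was 199 CPM there and led in Cont, at 3010 CPM. Errfi1 itself was 733 CPM in stroma labelled KO and 197 CPM in Cont stroma, a ratio of 3.72 (95% interval 3.55 to 3.89), and 513 and 575 CPM in epithelium. The stromal level was thus higher, not lower, in the library labelled KO. No label names the part of the gene that is deleted, and a 3' tag lying elsewhere in the gene checks nothing. Whether label and genotype match could not be settled from these counts. Directions below are therefore between the library labelled KO and the Cont library.

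With 1 library per genotype no test was possible. Ratios are CPM in the library labelled KO over CPM in Cont, and their intervals cover counting error only. A gene was counted as higher or lower at a ratio of at least 2 or at most 0.5, with at least 20 UMIs in the class over both libraries. In stroma 802 of 14457 measured genes (5.55%) were higher by this rule and 1851 (12.8%) lower. In epithelium 678 of 13344 (5.08%) were higher and 2001 (15%) lower.

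In stroma, activin subunits and the SMAD-induced gene Pmepa1 were about an order of magnitude higher in the library labelled KO, Bmp2 was also higher, and the BMP modulator Bmper was lower. Inhbb had a ratio of 13.3, Inhba of 10.6, Pmepa1 of 10.4 and Bmp2 of 2.35, while Bmper was 5.19-fold lower. All 10 members were measured in stroma. Of them 4 were higher (beside a background of 5.55%), 1 was lower (beside 12.8%) and 5 lay within 2-fold. Both receptors were among those within 2-fold. The members were chosen with earlier results of these data known, so these counts test no excess. The median log2 ratio was 0.18 over the members and -0.06 over all measured genes.

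**Figure D1:**
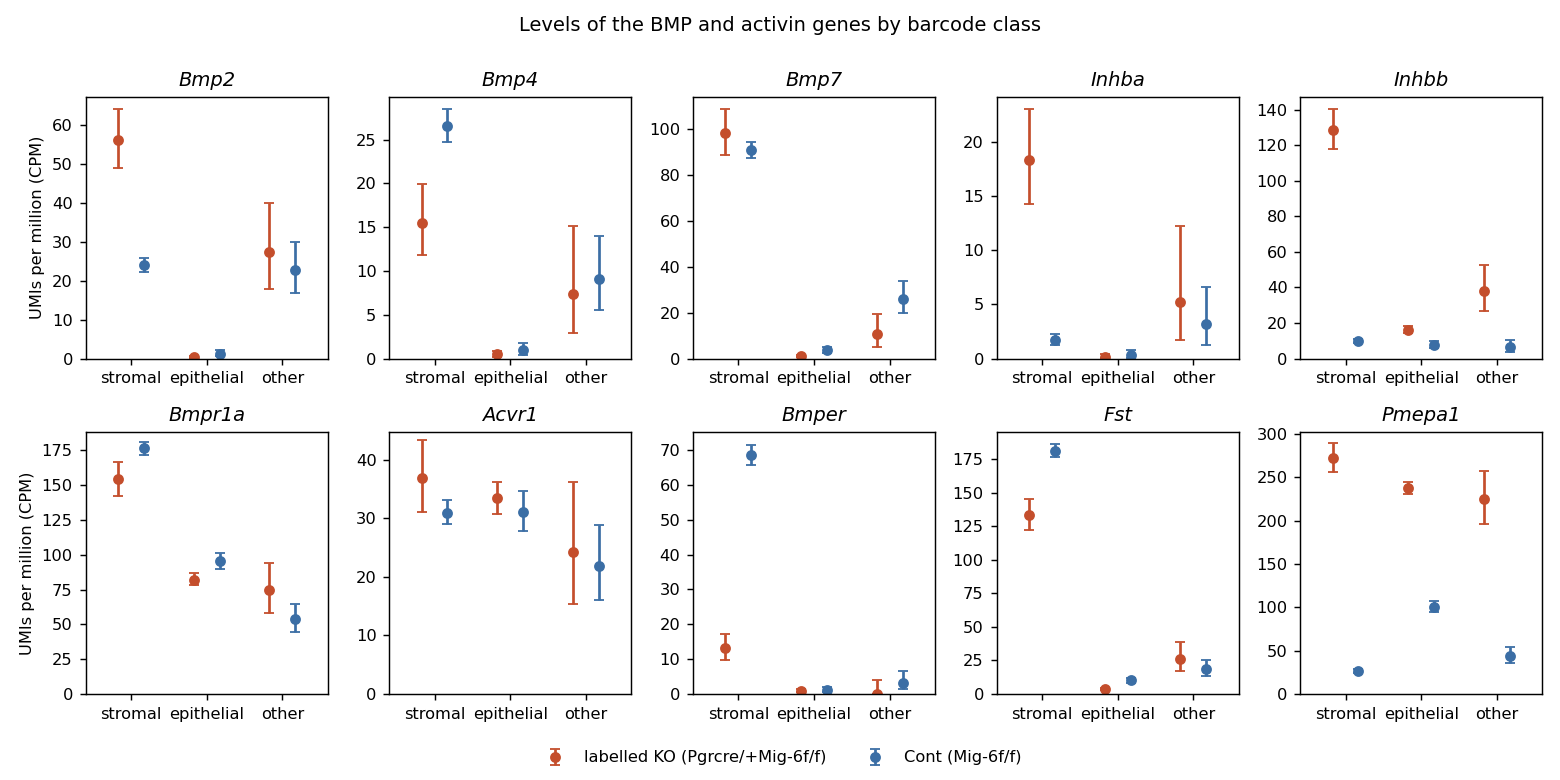
Level of each gene (vertical axis, CPM, a separate linear scale per gene) in stromal, epithelial and other barcodes, for the library labelled KO (red, left) and Cont (blue, right), with exact Poisson 95% intervals as bars. Inhbb, Inhba and Pmepa1 stand far above Cont in stroma of the library labelled KO, and Bmper far below.

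Inhbb encodes the beta-B subunit of activin B. In stroma it had 507 UMIs, or 129 CPM (118 to 140), in the library labelled KO, against 286 UMIs, or 9.70 CPM (8.61 to 10.9), in Cont. The ratio of 13.3 had an interval of 11.5 to 15.4. The transcript was found in 341 of 1050 stromal barcodes labelled KO (32.5%) and 204 of 3221 in Cont (6.33%), with at most 6 UMIs in any barcode of either library. Depth differed between the libraries, so barcodes were also thinned to 2000 UMIs, which left 941 and 3193 stromal barcodes. Then 20.7% (18.2 to 23.5) labelled KO and 1.85% (1.41 to 2.38) in Cont were positive. Immune-marker barcodes, a background for free RNA, had 0 Inhbb UMIs in both libraries. By the floor of 3 counts, 0 of 193 barcodes labelled KO allows a share of barcodes with a UMI of up to 1.55%, and 0 of 160 in Cont up to 1.88%, at median depths of 1765 and 5516 UMIs.

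Inhba encodes the beta-A subunit of activin A. It had 72 UMIs (18.3 CPM) in stroma labelled KO and 51 UMIs (1.73 CPM) in Cont stroma, a ratio of 10.6 (7.28 to 15.4). With barcodes thinned to 2000 UMIs the ratio was 7.16 (3.99 to 13.3). Few cells carried the transcript, 52 of 1050 stromal barcodes labelled KO (4.95%) and 45 of 3221 in Cont (1.40%). Immune-marker barcodes held Inhba at 2.64 CPM in the library labelled KO and 5.25 CPM in Cont, on 1 and 5 UMIs. The Cont stromal level is thus no higher than the level in immune cells of the same library, and the stromal level labelled KO lies above it. Epithelium held 2 and 3 Inhba UMIs.

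The promoters of both activin subunit genes and of Bmper are shown because, among members with a promoter entry, these had the stromal ratios farthest from 1, the subunits above it and Bmper below. Of the 10 members 6 (Bmp4, Inhba, Inhbb, Bmpr1a, Acvr1 and Bmper) had an entry in the RefSeq promoter table (GRCm38.p6), a different build from the mm39 named in the submitters' processing notes. The 250 bases before the start are printed 5′ to 3′ on the strand of the gene. They lie at chr1:119422249-119422498 on the minus strand for Inhbb, chr13:16011601-16011850 on the plus strand for Inhba and chr9:23222826-23223075 on the plus strand for Bmper. Capitals mark GTCT on either strand (read as AGAC on the other), the core of the SMAD binding element, with no overlap among the matches.
Inhbb: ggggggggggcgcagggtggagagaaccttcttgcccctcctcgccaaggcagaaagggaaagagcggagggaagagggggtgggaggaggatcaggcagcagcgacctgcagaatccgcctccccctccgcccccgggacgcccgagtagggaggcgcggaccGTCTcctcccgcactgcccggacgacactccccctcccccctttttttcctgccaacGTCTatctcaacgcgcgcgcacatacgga
Inhba: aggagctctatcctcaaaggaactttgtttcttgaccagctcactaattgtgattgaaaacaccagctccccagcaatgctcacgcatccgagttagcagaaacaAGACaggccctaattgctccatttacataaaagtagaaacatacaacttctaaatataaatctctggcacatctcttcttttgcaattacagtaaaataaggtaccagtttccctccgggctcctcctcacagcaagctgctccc
Bmper: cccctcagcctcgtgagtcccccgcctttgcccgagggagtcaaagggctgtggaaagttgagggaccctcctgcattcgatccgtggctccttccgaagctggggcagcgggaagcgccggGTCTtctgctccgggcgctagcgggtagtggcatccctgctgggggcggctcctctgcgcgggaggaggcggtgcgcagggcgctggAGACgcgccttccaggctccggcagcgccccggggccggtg

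The windows differ most in base composition. Inhbb is 68.0% G and C, Bmper 71.6% and Inhba 43.2%. GTCT occurred 2 times in the Inhbb and Bmper windows and 1 time in that of Inhba, and 82.9% of the 32851 promoter windows of this length hold it. Neither GGCGCC, a GC-rich BMP SMAD element held by 9.59% of windows, nor the AP-1 motif TGANTCA, held by 6.75%, occurred in these 3 windows on either strand. Inhbb, which was higher, and Bmper, which was lower, thus held the same number of matches.

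Bmp2, which stromal cells need for decidualization, was 56.1 CPM (49.0 to 64.0) in stroma labelled KO and 23.9 CPM (22.2 to 25.7) in Cont stroma, a ratio of 2.35 (2.01 to 2.74). The 10 barcodes with the most Bmp2 held 20.8% of its UMIs in stroma labelled KO, where 143 barcodes were positive. They held 12.2% in Cont, where 393 were positive and 1 barcode held 19 UMIs. Positive barcodes made up 13.6% of stroma labelled KO and 12.2% in Cont as counted, and 8.29% (6.61 to 10.2) against 3.70% (3.07 to 4.41) after thinning. Over all kept barcodes the direction turned, with 254 UMIs in the library labelled KO and 769 in Cont and a ratio of 0.630 (0.544 to 0.727). Stromal barcodes, which hold most Bmp2, were 36.4% of kept barcodes in the library labelled KO and 74.9% in Cont. With the stromal cut at 20 per 10000 UMIs the Bmp2 ratio was 1.96 (1.63 to 2.35), just under 2.

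Bmp4 and Bmp7, the remaining BMP ligands, did not reach 2-fold in stroma. Bmp4 was 15.5 CPM (11.8 to 19.9) in the library labelled KO and 26.6 CPM (24.7 to 28.5) in Cont, a ratio of 0.583 (0.442 to 0.757). Bmp7 was 98.3 and 90.9 CPM, a ratio of 1.08 (0.969 to 1.20), and 17.7% and 14.2% of thinned barcodes carried it. The 3 BMP ligands therefore had different ratios within the same stromal barcodes, with separate intervals.

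The receptors were close to level. Bmpr1a, a type I receptor for BMP2 and BMP4, was 154 CPM in stroma labelled KO and 176 CPM in Cont stroma, a ratio of 0.874 (0.802 to 0.951). It was found in 23.4% and 23.7% of thinned barcodes. Acvr1, the type I receptor also called ALK2, was 36.8 and 31.0 CPM, a ratio of 1.19 (0.991 to 1.42), with 5.95% and 5.67% of thinned barcodes positive. Their intervals leave out a 2-fold difference in either direction in stroma.

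Bmper, a secreted protein that binds BMPs and can inhibit or promote their action, was 13.2 CPM (9.86 to 17.3) in stroma labelled KO and 68.6 CPM (65.6 to 71.6) in Cont stroma. It was 5.19-fold lower (3.94 to 6.98). Positive barcodes were 34 of 1050 (3.24%) and 1008 of 3221 (31.3%), and after thinning 2.02% and 11.6%. In the library labelled KO 10 of the 34 positive barcodes held 53.8% of the stromal Bmper UMIs, against 4.45% in 10 of 1008 in Cont. These shares depend on the number of positive barcodes. Fst, follistatin, which binds activins and blocks them, was 133 and 181 CPM in stroma, a ratio of 0.734 (0.670 to 0.803). It was present in 21.3% and 26.6% of thinned stromal barcodes, and in 0 immune-marker barcodes of either library. Follistatin thus stayed within 2-fold where the activin subunits it binds did not.

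Pmepa1 is a target of TGF-beta and activin SMADs that binds SMAD2 and SMAD3 and holds them back. In stroma it was 272 CPM (256 to 289) in the library labelled KO and 26.3 CPM (24.5 to 28.2) in Cont, a ratio of 10.4 (9.43 to 11.4). The share of positive stromal barcodes was 49.9% and 15.6%, and 35.2% and 4.92% after thinning. It was also higher in immune-marker barcodes, which had 335 CPM in the library labelled KO and 79.8 CPM in Cont, a ratio of 4.20 (3.14 to 5.66). The immune level lay above the stromal level in both libraries. In the library labelled KO their intervals overlapped, at 279 to 399 and 256 to 289 CPM.

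**Figure D2:**
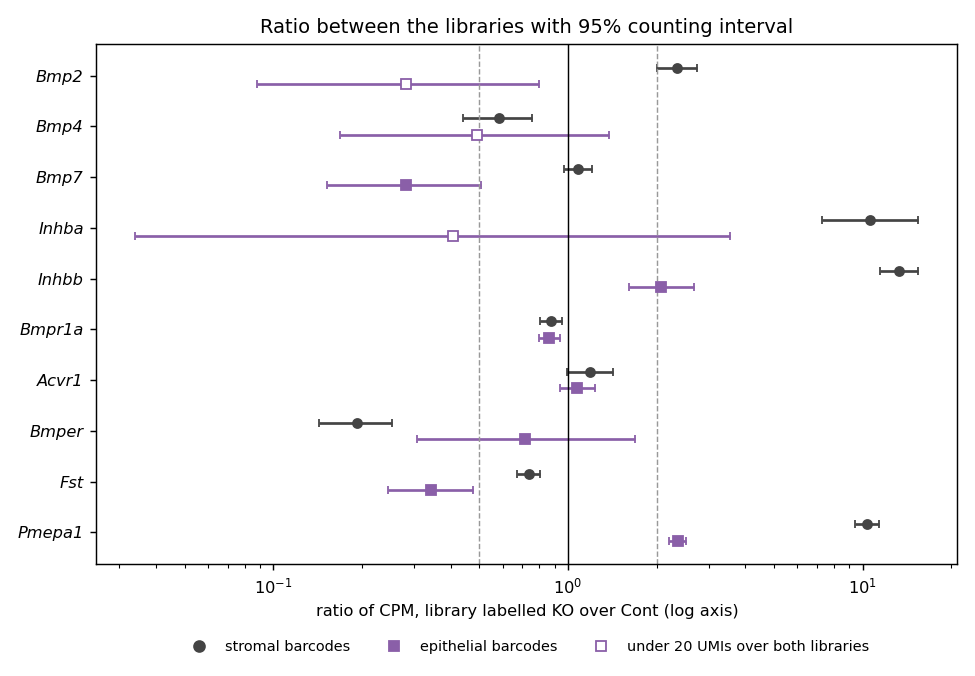
Ratio of CPM in the library labelled KO over Cont for each gene (horizontal log axis) in stromal (circles) and epithelial (squares) barcodes, with exact conditional 95% intervals; dashed lines mark 2-fold and open squares genes under 20 UMIs. Bmp2 lies right of 1 in stroma and left of 1 in epithelium, and the receptors Bmpr1a and Acvr1 lie near 1 in both.

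In epithelium Inhbb and Pmepa1 were higher in the library labelled KO, with ratios nearer 1 than in stroma. Bmp7 and Fst were lower, with ratios farther from 1 than in stroma, and Bmpr1a, Acvr1 and Bmper were within 2-fold. Bmp2, Bmp4 and Inhba had under 20 UMIs there and were not counted. Of the 7 measured members 2 were thus higher (beside a background of 5.08%) and 2 lower (beside 15%). The median log2 ratio was -0.21 over these members and -0.18 over all measured genes. Relative to the median ratio of genes with at least 100 UMIs, which was -0.14 on the log2 scale, Inhbb had a ratio of 2.28 and Pmepa1 of 2.59.

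Epithelial Inhbb was 16.01 CPM (14.2 to 18.0) in the library labelled KO and 7.72 CPM (6.14 to 9.58) in Cont, a ratio of 2.07 (1.62 to 2.69) that was 1.90 (1.06 to 3.63) after thinning. Pmepa1 was 238 CPM (230 to 245) and 101 CPM (94.9 to 107), a ratio of 2.36 (2.20 to 2.52), in 80.6% and 57.9% of epithelial barcodes. The stromal and epithelial ratios of both genes have intervals that do not overlap. In Cont, Inhbb was 9.70 CPM (8.61 to 10.9) in stroma and 7.72 CPM (6.14 to 9.58) in epithelium, with overlapping intervals. Pmepa1 was 26.3 CPM in Cont stroma and 101 CPM in Cont epithelium.

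Epithelial Fst was 3.46 CPM (2.64 to 4.45) in the library labelled KO and 10.1 CPM (8.26 to 12.2) in Cont, a ratio of 0.343 (0.246 to 0.475). In Cont 10 barcodes held 48.6% of its epithelial UMIs and 1 of them held 17. Bmp7 had 18 and 39 UMIs, a ratio of 0.282 (0.152 to 0.505). Most Bmp7 of Cont epithelium lay in gland-marker barcodes. Barcodes with at least 10 UMIs of Foxa2, Prss28, Prss29 and Cxcl15 per 10000 had 5 Bmp7 UMIs in 65 barcodes labelled KO (9.98 CPM) and 32 UMIs in 98 Cont barcodes (26.2 CPM), a ratio of 0.381 (0.116 to 0.986). The remaining epithelium had 13 and 7 UMIs, a ratio of 1.03 (0.384 to 3.06). Gland-marker barcodes were 4.58% of epithelial barcodes in the library labelled KO and 13.6% in Cont, but 2.26% and 2.28% of kept barcodes. The markers themselves differed in epithelium. Prss29 was 188 and 1752.5 CPM, Prss28 16.2 and 163 CPM and Cxcl15 5.24 and 31.5 CPM, while Foxa2 was 8.41 and 9.32 CPM. The cut may therefore take different cells in each library, and these shares do not count glands. The part of gland-marker barcodes in the lower Bmp7 of the whole epithelium was not tested.

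Gland-marker barcodes also differed in Pmepa1, with 47 UMIs (93.8 CPM) in the library labelled KO and 5 UMIs (4.09 CPM) in Cont, a ratio of 22.9 (9.17 to 73.9). The remaining epithelium had 242 and 113 CPM, a ratio of 2.13 (1.99 to 2.28). In Cont the level in gland-marker barcodes was thus far below that of the remaining epithelium. The gland-marker ratio may compare different cells, since the gland markers themselves differed between the libraries. Inhbb was 39.9 and 20.4 CPM in gland-marker barcodes, on 20 and 25 UMIs, and 15.3 and 6.07 CPM in the remaining epithelium, a ratio of 2.52 (1.89 to 3.42).

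Receptors in epithelium again lay near a ratio of 1. Bmpr1a was 82.2 and 95.2 CPM, a ratio of 0.863 (0.796 to 0.937), and Acvr1 33.4 and 31.1 CPM, a ratio of 1.07 (0.937 to 1.23). Shares of thinned epithelial barcodes were 14.9% and 14.7% for Bmpr1a, and 6.88% and 5.50% for Acvr1. In immune-marker barcodes Bmpr1a had 0 UMIs in the library labelled KO and 1 UMI in Cont, so its epithelial and stromal counts stand above background. Bmper, with 14 and 12 UMIs in epithelium, had a ratio of 0.713 (0.306 to 1.69).

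**Figure D3:**
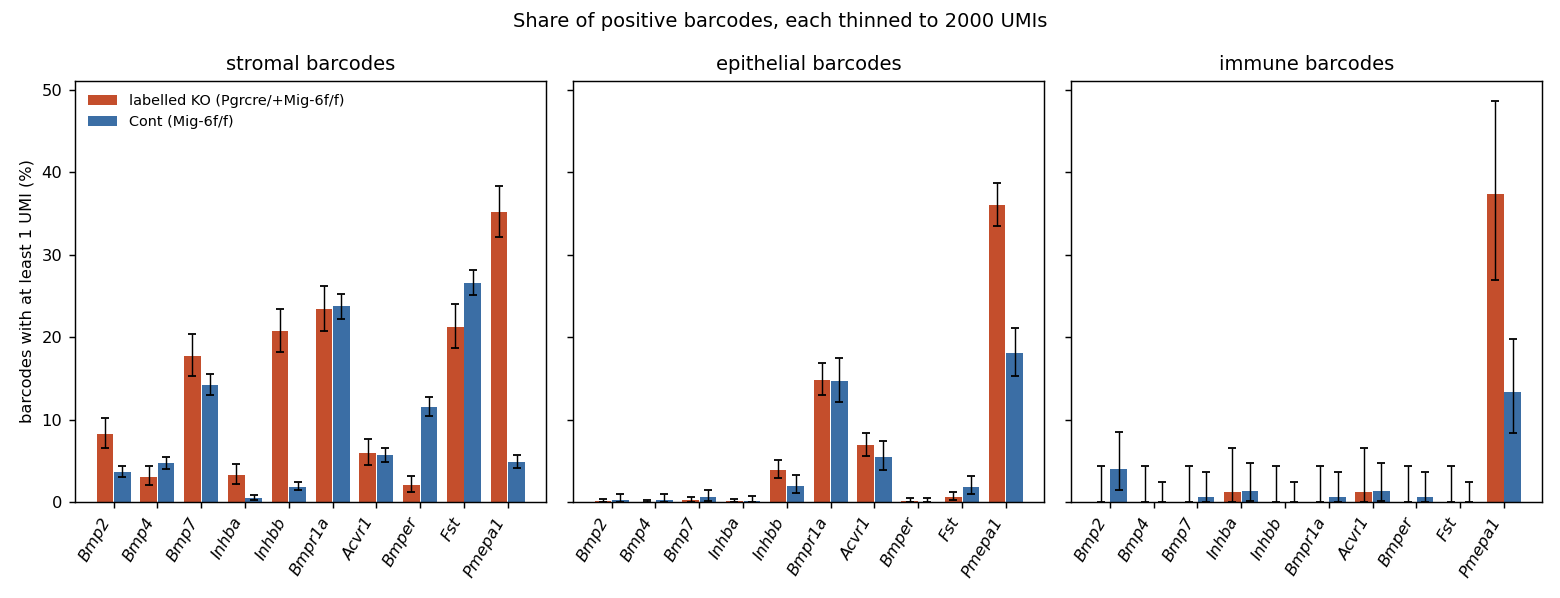
Share of barcodes with at least 1 UMI (vertical axis, percent) after each barcode was thinned to 2000 UMIs, for the library labelled KO (red, left) and Cont (blue, right), with exact binomial 95% intervals. Inhbb is found in 20.7% of stromal barcodes labelled KO and 1.85% in Cont, and of the 10 genes Pmepa1 alone reaches over 10% of immune barcodes.

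The other barcodes comprise those with immune, endothelial or mural markers and those with none of these marker sets, so their levels mix cell types. Pmepa1 was 225 CPM in the library labelled KO and 44.1 CPM in Cont there, a ratio of 5.10 (3.99 to 6.55), and Inhbb was 37.8 and 6.36 CPM, a ratio of 5.94 (3.13 to 11.9). Bmp7 was 10.5 and 25.9 CPM, Bmp2 27.3 and 22.7 CPM, Bmp4 7.35 and 9.09 CPM, and Inhba 5.25 and 3.18 CPM. Fst was 26.3 and 18.6 CPM, Bmpr1a 74.6 and 53.6 CPM, and Acvr1 24.2 and 21.8 CPM. Bmper had 0 UMIs in the library labelled KO, where the floor of 3 counts is 3.15 CPM, and 7 UMIs (3.18 CPM) in Cont. Only for Bmp7, Inhbb, Bmpr1a and Pmepa1 did the interval of the ratio leave out 1.

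Split by markers, barcodes with none of the immune, endothelial or mural marker sets had 21 Inhbb UMIs in 94 barcodes labelled KO and 1 UMI in 83 Cont barcodes. Mural barcodes had 13 and 5 Inhbb UMIs, and endothelial barcodes 2 and 8. Bmp2 was found in 7 of 160 immune barcodes of Cont, with 26 UMIs and up to 11 in a barcode, and in 0 of 193 labelled KO. Set against the floor of 3 counts this is 3.45-fold lower, and the counting interval begins at 2.61-fold lower. That interval treats each UMI as a separate count, while the 26 UMIs lay in 7 barcodes. After thinning, Bmp2 was in 0 of 83 immune barcodes labelled KO (0 to 4.35%) and 6 of 150 in Cont (1.48 to 8.50%). These intervals overlap, so a lower share of positive immune barcodes in the library labelled KO is not settled.

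Pairs of members were also compared within single stromal barcodes, as a description of these libraries with no test. Among stromal barcodes thinned to 2000 UMIs, 19 of 78 Bmp2-positive barcodes labelled KO (24.4%, 15.3 to 35.4) carried Inhbb, and 176 of 863 Bmp2-negative ones (20.4%, 17.7 to 23.2). In Cont these were 2 of 118 (1.69%) and 57 of 3075 (1.85%). Inhba was seen more often with Bmp2, in 10.3% (4.53 to 19.2) of Bmp2-positive and 2.67% (1.70 to 3.97) of Bmp2-negative barcodes labelled KO, on 8 and 23 barcodes. In Cont it was in 1 of 118 Bmp2-positive and 16 of 3075 Bmp2-negative barcodes. By Inhbb, Inhba was in 6.67% (3.60 to 11.1) of Inhbb-positive and 2.41% (1.44 to 3.79) of Inhbb-negative barcodes labelled KO, with overlapping intervals. In Cont it was in 0 of 59 and 17 of 3134. Taken by Inhba, the same pair had separate intervals. Inhbb was in 41.9% (24.55 to 60.92) of 31 Inhba-positive and 20% (17.45 to 22.75) of 910 Inhba-negative barcodes labelled KO. Pmepa1 was found in 44.1% (37.0 to 51.4) of Inhbb-positive and 32.8% (29.5 to 36.3) of Inhbb-negative barcodes labelled KO. In Cont it was in 5 of 59 and 152 of 3134. By Inhba the order was the other way in the library labelled KO, with overlapping intervals. Pmepa1 was in 29.0% (14.2 to 48.0) of Inhba-positive and 35.4% (32.3 to 38.6) of Inhba-negative barcodes there. Wnt4, a decidual WNT ligand, was in 9.74% of Inhbb-positive and 5.76% of Inhbb-negative barcodes labelled KO, with overlapping intervals. By Bmp2 it was in 12.8% and 6.03%.

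The mural marker sum reached its cut in 31.9% of stromal barcodes labelled KO and 6.02% in Cont. Of its 4 genes Des alone was clearly higher in stroma labelled KO, at 752 CPM against 418 CPM in Cont stroma. Acta2 was 60.7 and 143 CPM, Myh11 8.38 and 33.4 CPM, and Rgs5 14.7 and 14.4 CPM. Among stromal barcodes below the mural cut, Inhbb was 129 CPM in the library labelled KO and 9.67 CPM in Cont, Inhba 20.5 and 1.64 CPM, Pmepa1 271 and 25.6 CPM, Bmp2 60.05 and 24.2 CPM, and Bmper 13.3 and 69.1 CPM. These values are close to those of all stromal barcodes.

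Other genes of the pathway were examined in 7 lists of 91 genes: ligands, receptors and coreceptors, antagonists, SMADs with their ubiquitin ligases, targets of SMAD1/5, targets of SMAD2/3, and proteins that process the ligands or their matrix. In stroma 71 were measured, 12 were higher, 11 lower and 48 within 2-fold. In epithelium 59 were measured, 4 were higher, 7 lower and 48 within 2-fold. These counts stand beside the same backgrounds of 5.55% and 12.8% in stroma and 5.08% and 15% in epithelium. The lower genes in stroma and both counts in epithelium lay near their backgrounds. The higher genes in stroma lay above theirs. The lists were chosen with earlier results of these data known, so this difference is a description and no test. Counts of single lists below stand beside the same backgrounds, rest on few genes and were not tested.

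**Figure D4:**
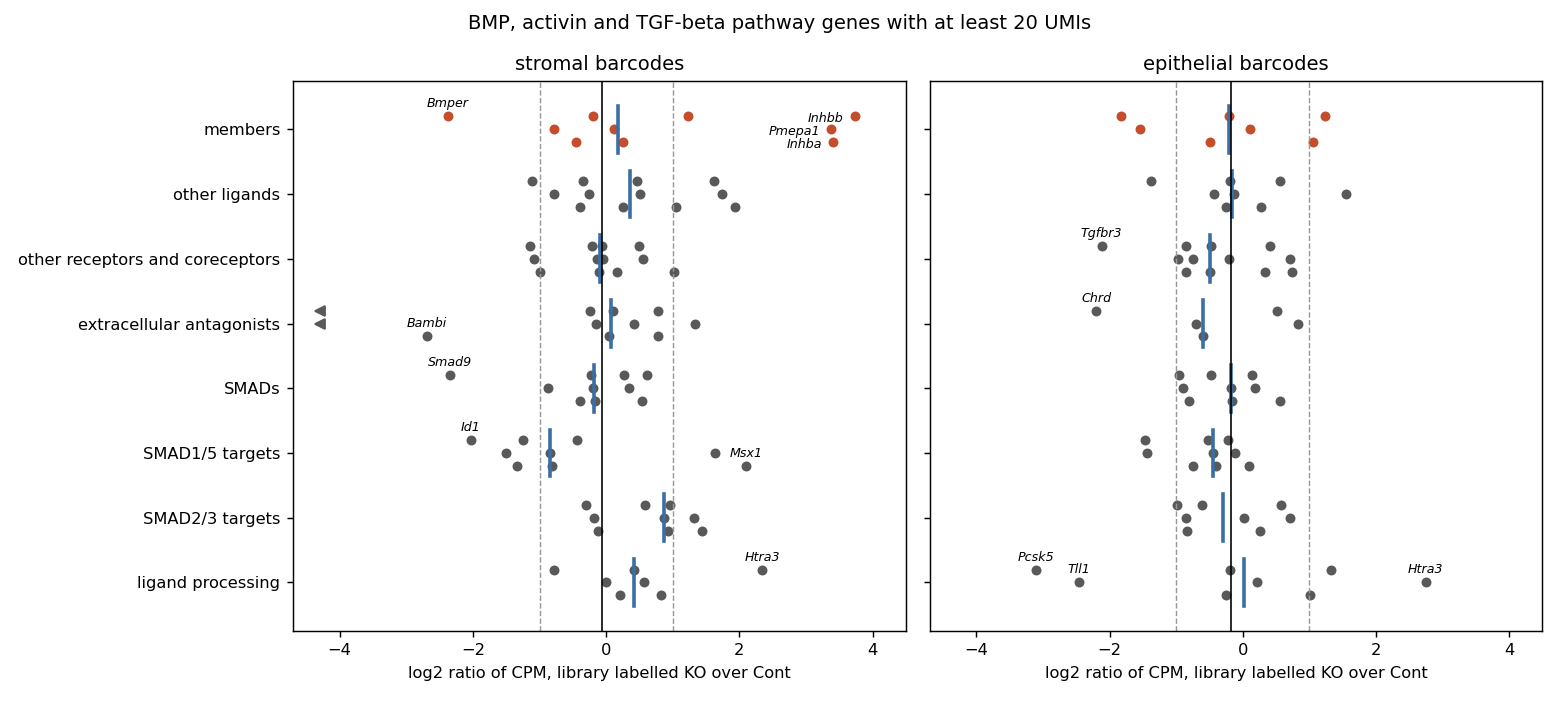
Log2 ratio of CPM, library labelled KO over Cont (horizontal axis), for measured genes of the members (red) and of 7 pathway lists (grey, with 1 antagonist not shown) in stromal and epithelial barcodes; blue bars are list medians, the black line the median of all measured genes, dashed lines 2-fold, and triangles at the left edge genes with 0 UMIs in the library labelled KO. SMAD1/5 targets have a median of -0.84 and SMAD2/3 targets of 0.87 in stroma.

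The target lists of both SMAD branches stood on opposite sides of 0 in stroma. Of 9 measured SMAD1/5 targets 4 were lower (Id1, Id2, Id4 and Atoh8), 2 were higher (Hes1 and Msx1) and 3 lay within 2-fold, with a median log2 ratio of -0.84. Id1, an inhibitor of basic helix-loop-helix factors and a direct BMP target, was 34.8 CPM in stroma labelled KO and 142 CPM in Cont stroma, 4.08-fold lower (3.44 to 4.88). Id2 was 9.40 and 26.6 CPM, 2.83-fold lower (2.03 to 4.05), and Id3 177 and 312 CPM, within 2-fold. The intervals of Id4 and Atoh8 included 1. Hes1, best known as a Notch target, was 155 and 49.9 CPM, a ratio of 3.11 (2.83 to 3.42), and Msx1, a homeobox gene, had 8 and 14 UMIs and a ratio of 4.28 (1.55 to 10.9).

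Of 9 measured SMAD2/3 targets 2 were higher, 0 lower and 7 within 2-fold, with a median log2 ratio of 0.87. Ccn2, a matrix-associated growth factor, was 41.4 CPM in stroma labelled KO and 15.3 CPM in Cont stroma, a ratio of 2.70 (2.24 to 3.24). Tgfbi, a secreted matrix protein, had 18 and 54 UMIs and a ratio of 2.49 (1.38 to 4.32). Ldlrad4, which restrains SMAD2/3, was 309 and 170 CPM, a ratio of 1.82 (1.71 to 1.94), and Tsc22d1 204 and 233 CPM. These lists were chosen with earlier results of the data known, and many of their genes answer to other signals as well.

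Among stromal antagonists, measured for 12 of 17 genes, 2 were higher, 3 lower and 7 within 2-fold. Nog, noggin, was 24.9 and 9.84 CPM, a ratio of 2.53 (1.99 to 3.19). Bambi, a membrane pseudoreceptor for BMPs and TGF-beta and itself a BMP target, was 7.62 and 49.4 CPM, 6.48-fold lower (4.52 to 9.65). Vwc2 had 0 and 55 UMIs, 2.45-fold lower against the floor of 3 counts, with an interval that begins at 1.93-fold lower. Chrdl2, also counted as lower, had 0 and 33 UMIs and was 1.47-fold lower against the floor of 3 counts. Fstl1, a follistatin-like glycoprotein, was 332 and 393 CPM, and Nbl1 551 and 321 CPM, both within 2-fold.

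Other stromal ligands had 4 of 12 measured genes higher (Tgfb1, Bmp3, Bmp6 and Bmp8a), 1 lower and 7 within 2-fold. Tgfb1 was 20.6 CPM in stroma labelled KO and 6.17 CPM in Cont stroma, a ratio of 3.33 (2.53 to 4.35), and Bmp6 5.08 and 1.32 CPM, a ratio of 3.84 (2.12 to 6.74). Gdf9, an oocyte ligand by its best known role, had 10 and 162 UMIs and a ratio of 0.462 (0.217 to 0.872). Tgfb2 and Gdf10 were within 2-fold, at 94.7 and 68.5 CPM and at 60.2 and 42.2 CPM. Among receptors 1 of 12 was higher, Tgfbr2, the type II TGF-beta receptor, at 355 and 175 CPM, a ratio of 2.03 (1.92 to 2.16). Rgmb, a BMP coreceptor, was 18.3 and 40.2 CPM, a ratio of 0.455 (0.353 to 0.577), and Acvr2b, a type II activin receptor, had 12 and 191 UMIs and a ratio of 0.470 (0.239 to 0.841). Tgfbr3, betaglycan, was level at 647 and 666 CPM.

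Most SMADs stayed within 2-fold. In stroma 9 of 10 were within 2-fold, with Smad1 at 116 and 96.9 CPM and Smurf2 at 73.6 and 82.3 CPM, and Smad9 counted as lower on 1 and 38 UMIs with an interval that included 1 (0.00486 to 1.17). All 9 measured in epithelium were within 2-fold. Among processing genes of the stroma 1 of 7 was higher. Htra3, a secreted serine protease that binds TGF-beta family ligands and marks decidualizing stroma, was 228 and 44.9 CPM, a ratio of 5.07 (4.65 to 5.52). Pcsk5, a proprotein convertase, was 409 and 704 CPM, and Htra1 680 and 457 CPM.

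In epithelium, of 9 measured SMAD1/5 targets 2 were lower and 7 within 2-fold, with a median log2 ratio of -0.44 beside -0.18 over all measured genes. Id1 was 31.5 CPM in epithelium labelled KO and 87.3 CPM in Cont epithelium, a ratio of 0.361 (0.324 to 0.401), and Id4 5.35 and 14.5 CPM, a ratio of 0.369 (0.282 to 0.481). Msx1, a homeobox gene linked to uterine receptivity, was 189 and 256 CPM, and Hes1 82.1 and 89.0 CPM. All 8 measured SMAD2/3 targets were within 2-fold, with a median log2 ratio of -0.30, on the same side of 0 as the SMAD1/5 targets. Among them were Ccn2 at 133 and 238 CPM and Tsc22d1 at 95.7 and 173 CPM. Chrd, the BMP antagonist chordin, was 2.13 and 9.79 CPM, a ratio of 0.218 (0.145 to 0.319), the 1 antagonist of 5 measured that was lower. Bambi was 18.2 and 29.6 CPM and Twsg1 33.9 and 19.0 CPM.

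Of the other epithelial ligands 1 of 8 was higher. Gdf15, a stress-responsive member of the superfamily, was 181 CPM in epithelium labelled KO and 61.5 CPM in Cont epithelium, a ratio of 2.94 (2.70 to 3.20). Bmp6 was lower at 2.36 and 6.12 CPM, and Tgfb2 was 25.1 and 28.8 CPM. Tgfbr3 was 3.86 and 16.8 CPM, a ratio of 0.230 (0.171 to 0.307), while Bmpr2 was 71.6 and 82.6 CPM and Tgfbr2 91.5 and 56.0 CPM. Processing genes went both ways, with 3 of 8 higher (Pcsk6, Furin and, on 22 and 2 UMIs, Htra3) and 2 lower. The proprotein convertases Pcsk6 and Furin, which cleave TGF-beta family precursors, were 453 and 180 CPM and 103 and 51.0 CPM, ratios of 2.52 (2.39 to 2.65) and 2.01 (1.82 to 2.22). Tll1, a BMP1-like protease that cleaves chordin, was 18.2 and 101 CPM, a ratio of 0.181 (0.159 to 0.205), and Pcsk5 had 12 and 63 UMIs, a ratio of 0.117 (0.0572 to 0.218).

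The genes with profiles most like each member were found by Pearson's r of log2(CPM + 1) over 10 points, 5 marker groups in 2 libraries, which share depth and cell makeup, so r describes these points only. For Inhbb the closest were Rrbp1 (0.962), Egr1 (0.960) and Lpin3 (0.953). For Inhba they were Cmklr1 (0.965), Ccl2 (0.956) and Gdpd3 (0.925), for Bmp2 Soga1 (0.974), Slc36a4 (0.970) and Iffo1 (0.967), and for Pmepa1 Senp5 (0.917), Rb1cc1 (0.912) and Rasa2 (0.890). Bmper was closest to Scara3 (0.985), Zfp239 (0.984) and Ext2 (0.954), and Fst to Klhl32 (0.989), Farp2 (0.988) and Rgma (0.988). Bmp4 was closest to Cpe (0.977), Prrx2 (0.972) and Ccbe1 (0.965), and Bmp7 to Tspan3 (0.977), Ltbp4 (0.959) and Igfbp4 (0.955). The receptor Bmpr1a was closest to Fermt2 (0.991), Atp11a (0.989) and Sox4 (0.988), and Acvr1 to Ror2 (0.968), Morc4 (0.957) and Qser1 (0.956).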

How the data were processed

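The matrices as deposited by the authors hold whole-number counts of UMIs, and Cell Ranger 7.0.1 wrote them, per the file headers. The submitters' processing notes also name Seurat and mm39. Kept barcodes had 500 or more genes and no more than 15% of UMIs from mitochondrial genes. In the library labelled KO 115 and in Cont 65 barcodes failed the first filter, and 114 and 126 the second. Scrublet (scanpy 1.11.5) ranked doublets, and 70 and 159 barcodes were removed. Barcodes were classed by marker sums, without clustering. CPM were taken from class sums. Ratios carry exact conditional, levels exact Poisson and shares exact Clopper-Pearson 95% intervals (scipy 1.17.1), covering counting error only. The ratio and its interval were tested on simulated data with known folds. In each pathway list and class, the genes named were the 2 with most UMIs and up to 2 higher and 2 lower whose interval lay farthest from 1. Bmp3, Bmp8a, Chrdl2, Atoh8, Id4 in stroma and Htra3 in epithelium were named after their values were seen. Members and lists were chosen with earlier results of these data known. Alternatives changed the barcode filters, doublet removal, marker cuts, scaling, averaging, depth, background and UMI minimum. The values of 1 antagonist gene counted in its list are not reported here.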

Additional observations from a re-analysis of the deposited data

Results flagged for a closer look

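The ligand genes Bmp2, Bmp3 and Bmp6 had ratios of at least 2-fold in opposite directions in stroma and epithelium, with intervals on opposite sides of 1, and the difference between the classes was not tested. In epithelium Bmp2 and Bmp3 had under 20 UMIs over both libraries and so were not counted as lower in the report. Bmp2 had a ratio of 2.35 in stroma and 0.282 (0.0880 to 0.796) in epithelium, where it rested on 6 UMIs in the library labelled KO and 13 in Cont. Bmp3 had a ratio of 3.09 (1.99 to 4.69) in stroma, on 33 and 80 UMIs, and 0.0408 (0.000968 to 0.265) in epithelium, on 1 and 15 UMIs. Bmp6 had a ratio of 3.84 in stroma, on 20 and 39 UMIs, and 0.386 (0.254 to 0.579) in epithelium, on 41 and 65 UMIs.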

How the results depend on the processing

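Under the alternatives tried, 182 of 191 member ratios stayed within the counting interval given in the report, 9 moved outside it and 0 of the members called higher or lower turned direction. In stroma Inhbb ranged from 13.1 to 13.7, Inhba from 7.16 to 12.6, Pmepa1 from 9.11 to 10.6, Bmp2 from 1.96 to 2.51 and Bmper from 0.158 to 0.212. Epithelial Bmper was 10.1 with the level in immune-marker barcodes subtracted, on few UMIs. That subtraction left 1 member higher in stroma. Bmp2, Inhba and Pmepa1 in Cont stroma lie at or under the immune level and then have no ratio. The subtraction left 1 member lower in epithelium, where Bmp7 lies under the immune level in both libraries. Epithelial Pmepa1 labelled KO, at 238 CPM, lies under the immune level of 335 CPM and also has no ratio. The 2 members then higher in epithelium were Inhbb and Bmper. Of the pathway genes, 7 were higher in epithelium after the subtraction. Members lower in epithelium numbered 4 with all deposited barcodes, 4 with no Scrublet removal and 5 with barcodes over both cuts put in the class with the larger sum, and 1 with barcodes thinned to 2000 UMIs. Thinning also left 1 member higher in epithelium and 7 pathway genes lower in stroma. At a minimum of 100 UMIs 1 member was lower in epithelium and 6 pathway genes were lower in stroma. At a minimum of 1 UMI 5 members were lower in epithelium, 20 pathway genes were lower in stroma, 8 were higher and 18 lower in epithelium. Beyond the subtraction and the minimum counts, the cause was not tested. No paired analysis was possible because each genotype has 1 library. The animals used, the library and the genotype cannot be told apart, and Cre at Pgr is part of the KO genotype. Depth limits genes with few UMIs in stroma labelled KO, where 3 counts are 0.762 CPM.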
